A study of Homo sapiens with 8 samples.

Results

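The comparison described here sets MDA-MB-231 cells depleted of both HNRNPC and PABPC4 against cells depleted of PABPC4 alone, and so asks how loss of HNRNPC moved poly(A) site choice where PABPC4 was already low. Its members are the pairs of poly(A) sites of a gene that were listed in both of these comparisons with control, 5185 pairs of 2814 genes out of 7615 pairs of 3656 genes listed in any comparison of the series. The value of a pair is the logAPAR of the double knockdown minus that of the PABPC4 knockdown. logAPAR compares how often the proximal site of a pair is used relative to its distal site, knockdown over control, as a natural log. A negative difference therefore means that usage moved to the distal site, which lengthens the 3′ UTR where both sites lie in the last exon, and a positive one that it moved to the proximal site. The control enters both values and cancels.

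MDA-MB-231 is a triple-negative human breast cancer line with mesenchymal traits. Its cells carried a repressive dead Cas9 (CRISPR interference) and, in every group, 2 single guides: sgCTRL and sgCTRL in control cells, sgHNRNPC and sgCTRL for the HNRNPC knockdown (KD), sgCTRL and sgPABPC4 for the PABPC4 KD, and sgHNRNPC and sgPABPC4 for the double KD. Each of the 4 groups had 2 libraries of RNA 3′ ends, made by oligo(dT) priming at the poly(A) tail (QuantSeq REV). The values analysed are the authors' fits over the libraries of a group, with no value per library, so no replicate spread can be given and each error and p below covers counting error only, with reads in place of independent molecules. The comparison called PABPC4 KD was identified by elimination, because its name mixes the abbreviations of both targets, and every difference rests on that assignment. Neither HNRNPC nor PABPC4 was listed among the pairs, so their depletion could not be checked. Of the 10 markers of mesenchymal breast cancer cells that were looked up, AXL, CD44, EGFR and CAV1 were listed, 1 of 8 luminal markers was (GATA3), and neither PTPRC nor HBB of blood was. A listing shows only that a gene had more than 1 usable site, not its level.

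Most human genes end at more than 1 place. Cleavage upstream gives a short 3′ UTR and cleavage downstream a long one, which can add sites for microRNAs and RNA-binding proteins, while cleavage inside an intron cuts the coding sequence short. HNRNPC is an abundant nuclear protein that coats nascent transcripts at runs of U and keeps cryptic splice sites and poly(A) sites out of use, among them those in Alu repeats read in antisense. PABPC4 is a cytoplasmic poly(A)-binding protein of the same family as PABPC1, with roles in mRNA stability and translation.

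Between double KD and PABPC4 KD, 89 of the 5185 pairs (1.72%) differed past p 0.01, the limit the study used for site switches, by a Wald z test in which the variances of both comparisons were added. The added variance counts the shared control as noise, which makes it an upper bound. Of these pairs 48 were lower in double KD, toward the distal site, and 41 were higher. With Benjamini-Hochberg adjustment over all pairs, 25 pairs (0.482%) of 24 genes passed adjusted p 0.05, 15 genes in the distal and 9 in the proximal direction. With 1 pair per gene, 44 genes passed p 0.01 toward distal (1.56% of 2814) and 34 toward proximal (1.21%), so the switches ran both ways, with 56.4% of the 78 called genes moving distally. The median difference over all genes was −0.0358. Called genes differed by a median of 1.10 in either direction, and at the median error of 1.04 a pair needed a difference of 2.69 to reach p 0.01, so smaller switches at thinly covered sites were not detectable at this depth. With the larger of both variances in place of their sum, 239 pairs passed p 0.01 and 97 passed adjusted p 0.05. That error leaves out the noise of 1 knockdown, so these counts can be too high. Without the pairs that have an end in Alu-type sequence, described further on, 65 and 14 passed.

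**Figure D1:**
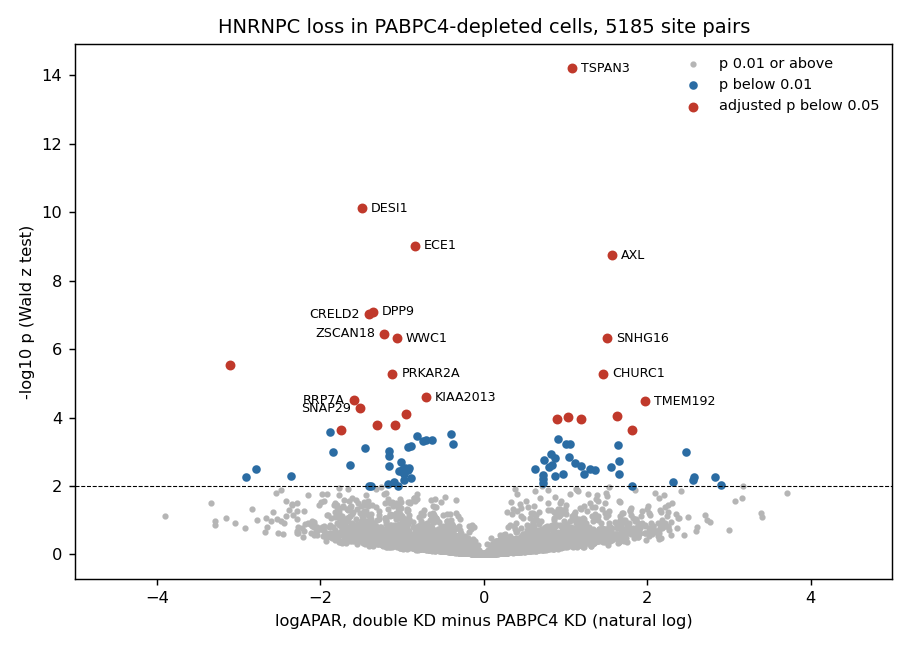
Difference in logAPAR between double KD and PABPC4 KD (x axis, natural log) against −log10 of its Wald p (y axis) for the site pairs; grey, blue and red points are pairs not past p 0.01, past p 0.01 and past adjusted p 0.05, and the dashed line marks p 0.01. Named are 15 genes of small p, with TSPAN3 highest; 1 pair with an absolute difference over 5, not past p 0.01, lies outside the axis.

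Set beside HNRNPC KD in cells that kept PABPC4, the called genes ranged from those that moved alike in both backgrounds to those with no such shift there. That comparison uses the HNRNPC KD and control libraries, and the difference described here uses the double KD and PABPC4 KD libraries, so they share none. Of the 78 called genes, 55 had the same sign in both (70.5%), against 56.1% of the 2508 genes that were not called and had an HNRNPC KD value. Of these 55, 18 also passed p 0.01 in HNRNPC KD. Genes called toward distal had a median difference of −1.08 in PABPC4-depleted cells and a median logAPAR of −0.224 in HNRNPC KD; genes called toward proximal had 1.15 and 0.223. In both directions the typical called gene thus had a larger value where PABPC4 was low. Because the genes were called on the first of each pair of values, that gap is partly fixed by the choice and is given as a description.

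Among those that moved alike, AXL (ENSG00000167601, chromosome 19, 41219223 to 41261766, plus strand), a receptor tyrosine kinase of mesenchymal breast cancer cells, moved toward the proximal of 2 ends that lie 1472 nt apart in its 3′ UTR. Its logAPAR was −0.315 under PABPC4 KD and 1.25 under double KD, which differed by 1.56 ± 0.260 (counting SE; Wald adjusted p 2.34e-06), beside 1.35 ± 0.164 in HNRNPC KD. Reads at the AXL proximal end, solved from the errors of the 3 comparisons and summed over the libraries of a group, were 58.8 in control and 49.7 in PABPC4 KD but 198 in HNRNPC KD and 207 in double KD, whereas the distal end kept 447, 518, 391 and 452 in the same order. The proximal end was thus high in the groups with sgHNRNPC and low in the groups without it.

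SNHG16 (ENSG00000163597, chromosome 17, 76557727 to 76670985), a long non-coding RNA that hosts small nucleolar RNAs, differed by 1.51 ± 0.300 (Wald adjusted p 0.000278), with 1.47 ± 0.199 in HNRNPC KD. Its solved proximal reads were 51.9 for control, 61.8 for PABPC4 KD, 186 in HNRNPC KD and 176 in double KD. CD44, the hyaluronan receptor, moved toward a proximal end annotated on a transcript subject to nonsense-mediated decay (difference 1.03 ± 0.264, HNRNPC KD 0.666 ± 0.185). USP7, a deubiquitinase that stabilises MDM2 and p53, had 0.897 ± 0.232 and 0.737 ± 0.175 in the same order. All 3 of SNHG16, CD44 and USP7 moved toward the proximal site in both backgrounds.

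Toward the distal site, DESI1, a desumoylating isopeptidase, differed by −1.49 ± 0.229 (Wald adjusted p 2.02e-07) and had −0.576 ± 0.139 in HNRNPC KD. Its distal reads were 67.5 for PABPC4 KD against 197 for double KD, and 109 for control against 213 for HNRNPC KD, while its proximal reads were 302 for PABPC4 KD and 199 for double KD. RRP7A, a ribosomal RNA processing factor, differed by −1.59 ± 0.381, beside −1.05 ± 0.236 in HNRNPC KD. The zinc finger gene ZSCAN18 had −1.22 ± 0.240 beside −0.745 ± 0.159. CRELD2, an endoplasmic reticulum (ER) stress protein, had −1.41 ± 0.264 beside −0.500 ± 0.176. All 4 moved distally in both backgrounds.

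At the other end stood genes with values near 0 in HNRNPC KD. TSPAN3 (ENSG00000140391, chromosome 15, 77041404 to 77083984, minus strand), a tetraspanin membrane protein, had the smallest p of all pairs, with a difference of 1.08 ± 0.139 (Wald adjusted p 3.26e-11) but 0.0969 ± 0.0910 in HNRNPC KD. DPP9, a cytosolic dipeptidyl peptidase that restrains inflammasome sensors, shifted distally by −1.36 ± 0.253 (Wald adjusted p 8.29e-05), with 0.00652 ± 0.194 in HNRNPC KD. ECE1 (ENSG00000117298, chromosome 1, 21217247 to 21345572, minus strand), the enzyme that matures endothelin, shifted by −0.845 ± 0.138 between ends 1337 nt apart in its 3′ UTR (Wald adjusted p 1.66e-06), with −0.135 ± 0.0877 in HNRNPC KD. A test of the gap between the 2 backgrounds, over the 4692 pairs with a value in all comparisons, gave 3 pairs past adjusted p 0.05 (0.0639%), those of TSPAN3, ECE1 and DPP9.

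For the other genes with small values in HNRNPC KD the gap between backgrounds did not pass that test, so they are not shown to respond only where PABPC4 is low. PDLIM5 (ENSG00000163110, chromosome 4, 94451857 to 94668227, plus strand), a PDZ and LIM domain protein of the actin cytoskeleton that the study followed up, shifted distally by −0.952 ± 0.241 (Wald adjusted p 0.0234), beside 0.287 ± 0.202 in HNRNPC KD and an adjusted p of 0.0746 for the gap (Wald z test). For the proximal site of PDLIM5 the solved reads were 1444 (control), 1153 (HNRNPC KD), 1249 (PABPC4 KD) and 396 (double KD), while the distal end had 68.3, 40.9, 92.6 and 76.0. The PDLIM5 switch was thus carried by fewer proximal reads and not by more distal ones. The study reported that PDLIM5 moved to its distal site in HNRNPC-deficient cells, by sequencing of 3′ ends and by RT–qPCR. The HNRNPC KD value here, 0.287 ± 0.202, has the opposite sign and did not pass p 0.01. For HNRNPC targets as a set, the study saw no significant distal switching between double KD and PABPC4 KD. That set was not tested here.

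In several more genes reads at 1 site were far lower in double KD, and the part played by the other site varied. TMEM192, a lysosomal membrane protein, differed by 1.97 ± 0.474, and its distal site had 2534 control reads, 2223 HNRNPC KD reads, 2015 PABPC4 KD reads and 748 double KD reads; its proximal site, with few reads, had 11.3 in PABPC4 KD and 29.8 in double KD. CHURC1, a zinc-binding transcriptional activator, differed by 1.46 ± 0.321, with distal reads of 583, 475, 478 and 152 in that order and proximal reads of 36.7 and 50.5 in the last 2 groups. The distal site of this CHURC1 pair is the proximal site of a second called pair, which went toward distal (−1.17 ± 0.445). SNAP29, a membrane fusion protein of autophagosomes and endosomes, differed by −1.52 ± 0.375, with proximal reads of 746, 651, 599 and 284 and distal reads of 21.6 and 46.5 in the last 2 groups. MAGT1, a magnesium transporter and oligosaccharyltransferase subunit, differed by −1.09 ± 0.289, with proximal reads of 403, 355, 393 and 153 and distal reads of 56.7 and 65.7 in the last 2 groups. At the well-covered site of each gene the double KD had the lowest count and the single KDs stood near control. In TMEM192 and SNAP29 the thinly covered other site was also higher in double KD by a like ratio, so their switches, unlike that of PDLIM5, were not carried by 1 site alone.

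Further genes past adjusted p 0.05 were read by their logAPAR alone or partly so. GOSR1, a Golgi SNARE, differed by −1.74 ± 0.473, with 0.0214 in HNRNPC KD. P3H4, a collagen-modifying partner of the ER, differed by −1.31 ± 0.348, with −0.0997. WWC1 (KIBRA), a scaffold of the Hippo pathway, differed by −1.06 ± 0.211, with −0.328. KIAA2013 differed by −0.710 ± 0.169, with −0.0386. ORAI1, the pore of the store-operated calcium channel, differed by 1.19 ± 0.309, with 0.524. PRKAR2A, a regulatory subunit of protein kinase A, differed by −1.12 ± 0.246, with −0.192. METTL2A, a tRNA methyltransferase, differed by 1.62 ± 0.415, but it has the near-identical paralog METTL2B, so reads of either could be split between copies and this value is uncertain.

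**Figure D2:**
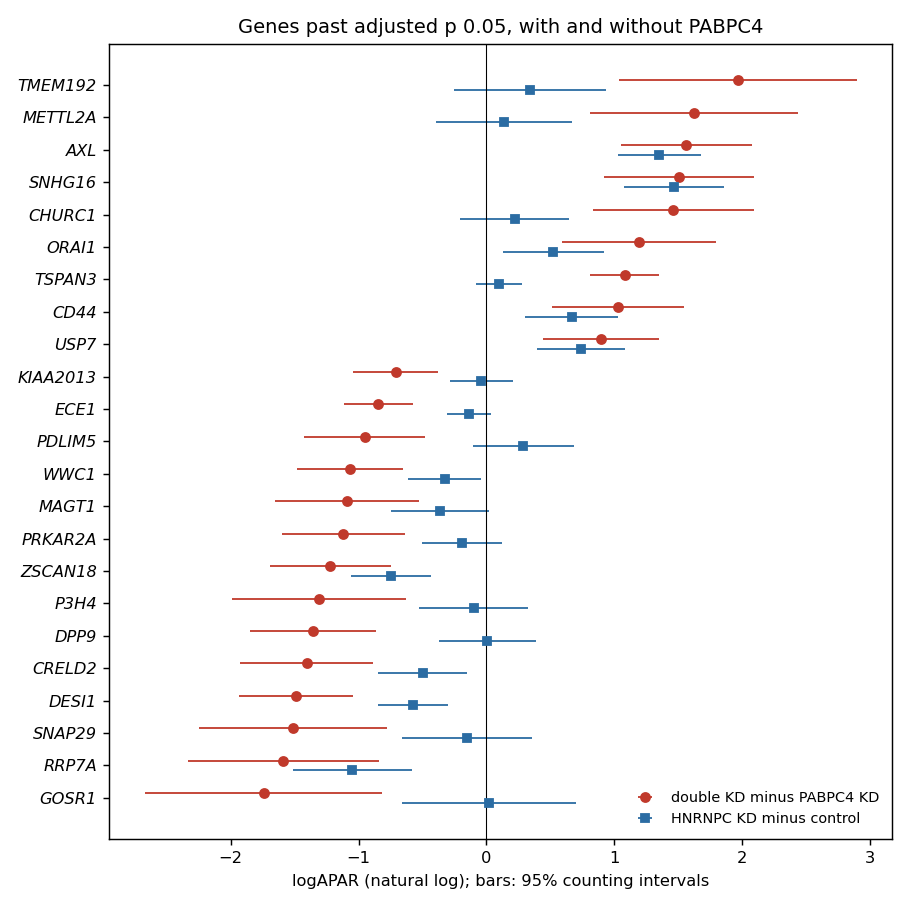
Difference in logAPAR between double KD and PABPC4 KD (red circles) and logAPAR of HNRNPC KD against control (blue squares) for 23 of the 24 genes past adjusted p 0.05, on the x axis in natural log units, with bars of 1.96 counting errors either way. AXL, SNHG16 and USP7 have both points together, whereas the points of TSPAN3, ECE1 and DPP9 stand apart.

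Many of the placed ends that had fewer reads in double KD shared a sequence feature that the choice of pairs had not used, and it was noticed after the values were seen. Of the 6655 sites in the pairs, 3631 were named by a transcript, and 3197 of these were placed on hg38 through Gencode release 44; sites named by position use another build that is not named and could not be placed. Alu elements are short, very numerous primate repeats with a left and a right arm, an A-rich linker and an A-rich tail. Placed ends were searched, in the 100 nt before the end, for CAGCCTGG, which the Alu consensus holds in each arm, and for GAAACCCC of the left arm, on the transcript's strand. An end with either is called here an end with an Alu-type motif; 163 of the 3197 placed ends (5.10%) had one, and 8 had the reverse complement of one. For contrast, the ends shown are 4 without the motif, the proximal ends of AXL and USP7 and the distal ends of DESI1 and ECE1, each as 30 bases of hg38, 5′ to 3′ on the transcript's strand, with the poly(A) signal, AATAAA or ATTAAA, in capitals.
AXL, proximal end, chr19:41260265-41260294, plus strand: aattctATTAAAgtgctaaggttctaaggc
USP7, proximal end, chr16:8892772-8892801, minus strand: gttgAATAAAattttctataaaaattataa
DESI1, distal end, chr22:41598028-41598057, minus strand: aatgcAATAAActcatttctgcctgctgca
ECE1, distal end, chr1:21217247-21217276, minus strand: taatggaAATAAAatacttgtacggagggc

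The ends with the motif differed from the others in further sequence features. A poly(A) signal in the last 50 nt was found at 13.5% of the 163 ends with the motif and at 71.1% of the 3034 without it. A run of 8 A within 30 nt on either side of the end was found at 64.4% and 8.27%, in that order. A run of 5 U in the 100 nt before the end, the kind of sequence HNRNPC binds, was found at 2.45% and 36.2%. Oligo(dT) can prime on A-rich sequence inside a transcript, and copies of a repeat are alike enough for reads to be shared among them, so read numbers at these ends are uncertain; the part of either in the results was not tested.

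Reads at these ends were low in double KD. Of 468 sites with solved reads and at least 50 reads in PABPC4 KD, 27 were placed ends with the motif, and the log2 ratio of double KD to PABPC4 KD reads had a median of −1.22 there, from −1.86 to 0.53. It was 0.05 at the 200 placed ends without the motif. In the comparisons with control the same 27 ends stood near 0, with medians of −0.14 for HNRNPC KD and −0.18 for PABPC4 KD. HEATR5A, a gene of endosomal transport, had 1704 control reads at its end, 1552 with HNRNPC KD, 1506 with PABPC4 KD and 575 with double KD. NMNAT1, which makes NAD in the nucleus, had 796, 664, 697 and 223 in that order, SEC24B, a cargo adaptor of COPII vesicles, 356, 303, 314 and 124, and TNFSF15, a cytokine of the TNF family, 126, 127, 140 and 41.9. The proximal end of ECE1 had 314, 299, 313 and 139, and that of PRKAR2A 162, 114, 135 and 46.4. Each of these 6 ends was lowest in double KD, but they were picked or called by their values and serve only as examples. Of all 27 ends with the motif, 17 had a log2 ratio of double KD to PABPC4 KD under −1, beside 5 of the 200 without it.

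**Figure D3:**
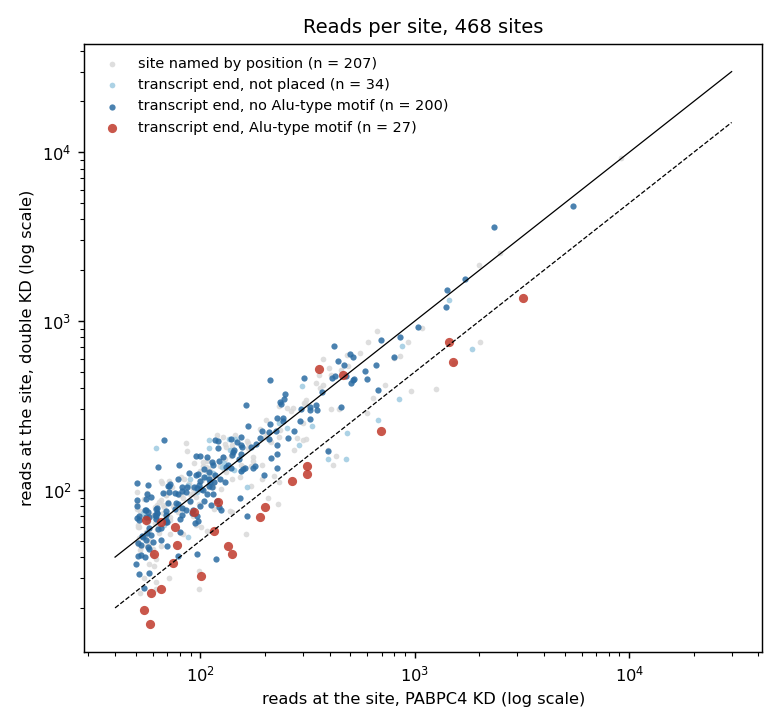
Solved reads at each site in PABPC4 KD (x axis) and double KD (y axis), both on log scales, for 468 sites by kind of site; the solid line marks equal reads and the dashed line a ratio of 0.5. Most ends with an Alu-type motif (red, 27 sites) lie near or under the dashed line, and placed ends without it (blue, 200 sites) lie around the solid line.

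Not every end with the motif lost reads. The ends of CHMP3 (359 reads in PABPC4 KD, 518 in double KD), TPM4 (461 and 476), RAB29 (65.6 and 65.0) and GALNT6 (55.9 and 66.4) did not. Conversely, of the 46 sites with a log2 ratio under −1, 22 were placed ends and 17 of these had the motif (77.3%, against 11.9% of the 227 placed sites with enough reads). A further 18 were sites named by position, among them those of PDLIM5, TMEM192 and SNAP29, whose sequence could not be read, and the other 6 were transcript ends that could not be placed. Of the 46, 4 were also under −1 in HNRNPC KD against control, beside 13 of all 468 sites (2.78%). The 4 included the end of ENPP1, a pyrophosphatase of the cell surface (91.9 control reads, 27.7 with HNRNPC KD, 118 with PABPC4 KD, 38.8 with double KD), and 2 sites of RAP2B, a small GTPase. The fourth was an end of the translation release factor gene GSPT1, and neither it nor the ENPP1 end has the motif.

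**Figure D4:**
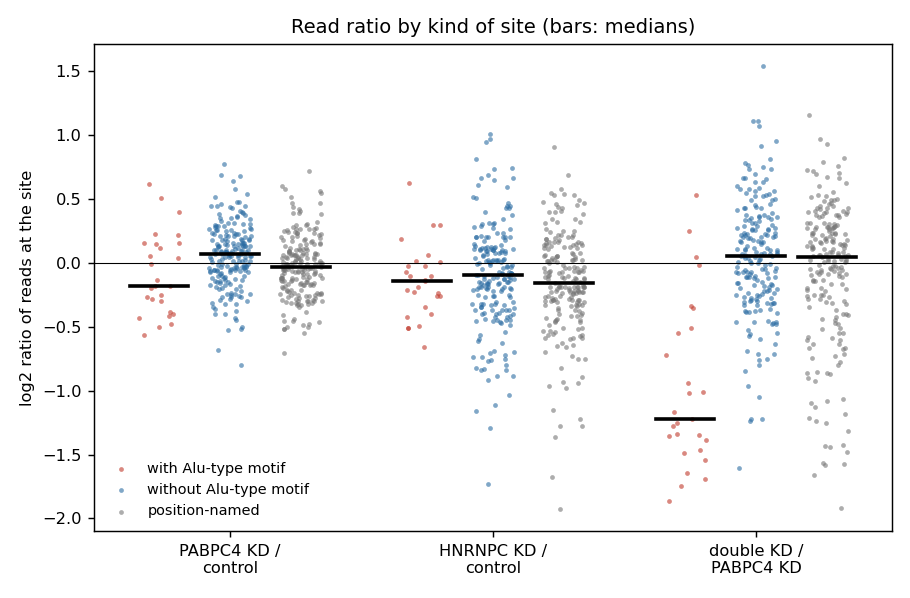
log2 ratio of solved reads (y axis) at sites with an Alu-type motif (red, 27), placed ends without it (blue, 200) and sites named by position (grey, 207), for PABPC4 KD over control, HNRNPC KD over control and double KD over PABPC4 KD; bars are medians. The red median is −1.22 in the last comparison and −0.18 and −0.14 in the first 2.

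A run of A without the motif did not go with a like loss. Among placed ends without the motif, the median log2 ratio was −0.16 at 22 ends with a run of A and 0.07 at 178 without. Among ends with the motif it was −1.09 at 20 ends with a run and −1.47 at 7 without.

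In pairs of sites, the median difference went with the place of the motif. Where only the proximal end had it (84 pairs of 78 genes), the median difference was −0.792, 89.3% of pairs were below 0, and 9 pairs were called toward distal and 1 toward proximal. Where only the distal end had it (31 pairs of 31 genes), the median was 0.621, 29.0% were below 0, and 2 pairs were called toward proximal and 1 toward distal, so the called pairs of this class are too few to show a direction. The called pairs that went against the median of their class were those of MYO1C (proximal end) and TIMM50 (distal end). Where neither end had it (787 pairs of 656 genes), the median was −0.0327 and 52.2% were below 0. The medians of the same 3 classes in HNRNPC KD were −0.0601, 0.126 and −0.00622, and in PABPC4 KD 0.0373, 0.00487 and 0.00626. The shift by motif was thus seen in double KD and was small in either single KD. Since the motif was chosen after the values were seen, these are descriptions with no test.

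The motif separates the called genes only in part. Of the 78, 21 had an end with it, among them TSPAN3, ECE1, CRELD2, ORAI1, PRKAR2A and METTL2A. Over all pairs, 4968 of 5185 had no end seen to have the motif, and 65 of the 89 called pairs were among these. All 11 called genes with both ends placed and no motif had the same sign in HNRNPC KD, 6 of them past p 0.01, and AXL, USP7, ZSCAN18, HDLBP and MBD3 were among them. Of the 21 genes with the motif, 15 had the same sign and 4 passed p 0.01 in HNRNPC KD. The remaining 46 had an end that could not be placed, and 29 of these had the same sign.

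Runs of U were set beside the difference as well, in the pairs with both ends placed and no Alu-type motif. With a run of 5 U before the proximal end only (153 pairs), the median difference was 0.141 and 44.4% of pairs were below 0. With a run before the distal end only (201 pairs), it was −0.141 and 61.2% were below 0. With a run at neither (341 pairs) it was −0.0772. With a run at both (92 pairs) it was 0.0863, and 40.2% were below 0. Where 1 end alone had the run, the share of that end was thus higher in double KD than in PABPC4 KD in these medians. Pairs with a run at both ends leaned toward proximal as well. The quartiles of the difference spanned 0 in each class, and 1 to 4 pairs per class were called. Against control, proximal-only and distal-only pairs had medians of −0.0483 and −0.0410 in double KD, so both leaned slightly distal there. The medians were −0.00386 and −0.00788 in PABPC4 KD, and 0.112 and −0.0652 in HNRNPC KD.

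By function, called genes were spread thinly. Of 17 lists, 15 had at least 1 gene past p 0.01, and most had a share near the 2.77% of all genes tested. None of 14 cleavage and polyadenylation factors and none of 15 cytosolic ribosomal proteins passed p 0.01 by the Wald test, with medians of −0.0550 and −0.0737. At an unadjusted p of 0.05 the counts were 0 and 1, and with the larger of both variances in place of their sum 0 and 1 passed p 0.01. Of 35 nuclear RNP proteins and binders of U-rich or AU-rich RNA, only HDLBP passed, an RNA-binding protein with many KH domains (−0.708 ± 0.202), whose distal reads were 186 (control), 376 (HNRNPC KD), 211 (PABPC4 KD) and 445 (double KD).

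The list of genes tied to metastasis and epithelial-mesenchymal transition had 4 genes toward distal and 3 toward proximal among 41 (17.1%), 6 of them past adjusted p 0.05. They were PDLIM5, ECE1 and DPP9 on the distal side and AXL, CD44 and TSPAN3 on the proximal side, with ACTN4, the actin cross-linker alpha-actinin 4, as the fourth distal gene (−0.382 ± 0.111). That list held genes named in earlier results of these data, so its share is not independent evidence. At the proximal site of ACTN4 the solved reads were 440 (control), 336 (HNRNPC KD), 407 (PABPC4 KD) and 300 (double KD). At its distal site they were 2024, 1396, 1989 and 2148 in that order. The logAPAR of ACTN4 in HNRNPC KD was 0.0999 ± 0.0804, so both sites had fewer reads there without a distal shift.

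Of 90 genes of cytoskeleton, adhesion and matrix, 6.67% were called, beside 2.77% of all genes tested. Toward distal were 3 (among them PDLIM5 and ACTN4) and toward proximal 3 (TSPAN3, CD44 and the motor MYO1C, 1.00 ± 0.292), with a list median of 0.00958. PDLIM5, ACTN4, TSPAN3 and CD44 are also in the metastasis list, so this share is not independent evidence. Of 81 genes of ER folding and membrane organisation, 4.94% were called. The lists were chosen with earlier results of these data known, so this share is not independent evidence either. CRELD2 was called toward distal, and ORAI1, FAM126A (1.64 ± 0.479), a scaffold of the kinase PI4KA, and LNPK (1.66 ± 0.533), which holds ER tubule junctions, toward proximal. LNPK and FAM126A had the opposite sign in HNRNPC KD (−1.10 ± 0.417 and −0.459 ± 0.415). Their distal reads were 428 and 415 under PABPC4 KD, 158 and 140 under double KD, and their proximal reads 7.95 and 16.7 under PABPC4 KD, 15.4 and 29.2 under double KD. Against PABPC4 KD, both switches thus combined fewer distal reads with more reads at a thinly covered proximal site. Control had 24.9 proximal reads for LNPK and 16.5 for FAM126A, so the LNPK proximal site stood below control in double KD.

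Of 156 ubiquitin and proteasome genes, 3.21% were called, beside 2.77% of all genes tested. In this list 1 was called toward distal and 4 toward proximal. The latter included USP7 and the ring finger ligases RNF149 (1.11 ± 0.363, with the Alu-type motif at its distal end) and RNF213 (1.19 ± 0.397). The distal gene was BIRC5, which encodes survivin, an inhibitor of apoptosis and a mitotic protein (−2.36 ± 0.841), on 19.9 proximal reads in PABPC4 KD and 3.22 in double KD, with 34.6 and 59.2 distal reads. Of 129 vesicle trafficking genes, 3 were called (2.33%), all toward distal: SNAP29, GOSR1 and PLEKHB2 (−0.738 ± 0.211), the last with the Alu-type motif at its proximal end. Of 49 translation factors, tRNA synthetases and tRNA-modifying enzymes, 6.12% were called, beside 2.77% of all genes tested. With only the outermost sites of each gene paired, 0 were called. As for the other lists, this share is not independent evidence. EIF2AK2, the double-stranded RNA-activated kinase PKR, was called toward distal (−1.88 ± 0.513, with proximal reads 207 under PABPC4 KD and 89.0 under double KD, distal reads 13.95 and 39.3). METTL2A and METTL2B were called toward proximal by their pairs of smallest p. These are the near-identical paralogs between which reads could be split, so they may not be separate calls. A second METTL2B pair, in which the distal site of the first is the proximal one, went toward distal (−1.37 ± 0.534).

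In the kinases and phosphatases (120 genes), AXL and PPP1R37, a protein phosphatase 1 regulator with the Alu-type motif at its distal end (0.867 ± 0.273), were called toward proximal. In the chromatin list (91 genes), MBD3 of the NuRD complex (−1.16 ± 0.352) and HMGB3 (0.907 ± 0.257) were called, with −1.11 ± 0.218 and 0.729 ± 0.207 in HNRNPC KD. In the cell cycle list (67 genes), DDIT4, an inhibitor of mTORC1, was called toward proximal (1.06 ± 0.308, and 1.19 ± 0.188 in HNRNPC KD) and BIRC5 toward distal. The splicing list (63 genes) gave SRSF10 (−1.16 ± 0.361), with the motif at its proximal end, and the Sm core protein SNRPD3 (0.730 ± 0.275). The mitochondrial list (54 genes) gave the import translocase TIMM50 (−1.01 ± 0.327) and the ribosomal DAP3 (0.722 ± 0.255). Both have an Alu-type motif at the distal end, and none of the list's genes was called without such pairs. The logAPAR of TIMM50 was 1.97 in PABPC4 KD, 0.959 in double KD and 0.483 in HNRNPC KD, each toward proximal against control. The zinc finger list (110 genes) gave ZSCAN18, ZNF526 (−1.16 ± 0.384) and ZNF346 (1.23 ± 0.433). The GTPase and G-protein list (56 genes) and the carriers and channels (78 genes) had 1 gene each, PRKAR2A and ORAI1, and none without pairs that have such an end. Each of these lists had a share of 1.28% to 3.70%, beside the 2.77% over all genes.

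**Figure D5:**
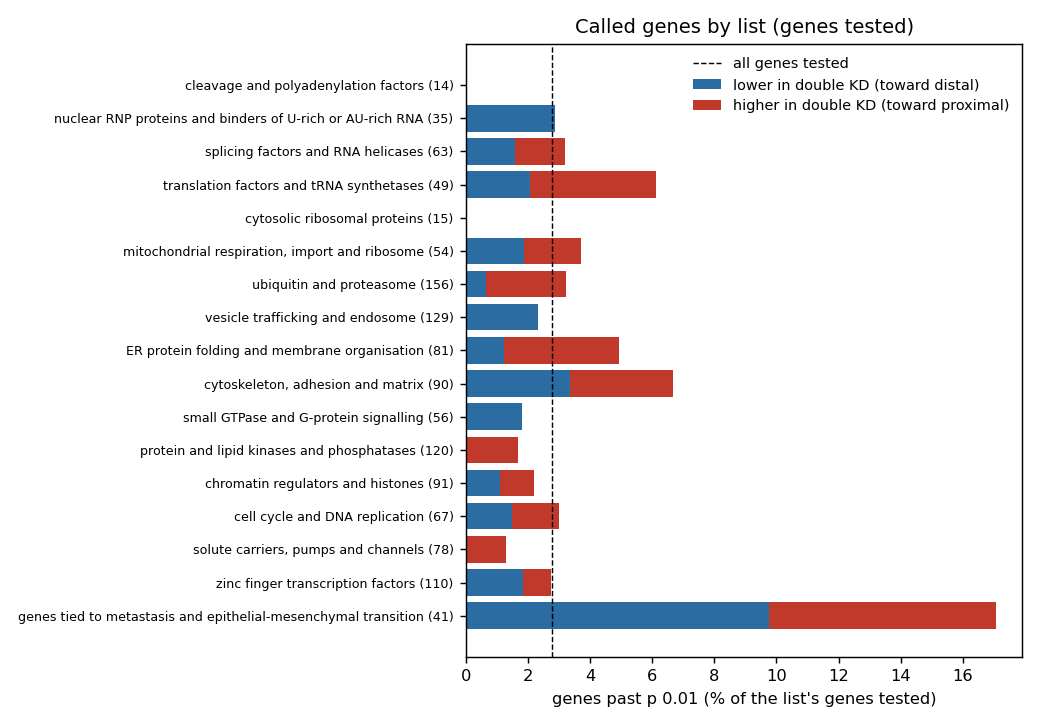
Share of each list's tested genes past p 0.01 in double KD against PABPC4 KD (x axis, percent), split into genes lower (blue, toward distal) and higher (red, toward proximal); numbers in parentheses are genes tested and the dashed line is the 2.77% of all genes. The bottom bar (17.1%) holds genes named in earlier results of these data, and all lists were chosen with such results known.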

How the data were processed

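RNA 3′ ends of 8 samples were sequenced with QuantSeq REV. Per the paper's methods the authors quantified poly(A) sites with Salmon (0.14.1 in the submitters' processing notes) on Gencode release 33 ends, and fitted pairs of sites with APAlog. UMI-tools is listed with hg38, without a stated role. The deposited values are logAPAR, on a natural log scale, each with a raw p-value and adjusted p-value that the authors computed; Benjamini-Hochberg adjustment of the raw p-values returned the deposited ones.

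A standard error was recovered from each logAPAR and its p-value. Differences were tested by a Wald z test with both variances added. At 680 of 681 genes with at least 3 shared sites, the variances of the 3 comparisons were solved for reads per site and group (2250 sites, median per group 11.3 to 13.6 reads), which gave an alternative error; the procedure was tested on simulated data. Library depth is unknown. Ends were placed on hg38 by transcripts of identical version in Gencode release 44. Named genes were those past adjusted p 0.05, PDLIM5, and up to 3 per direction and list past p 0.01; sites shown for other genes were picked by their values, and some genes and sequences under these rules are not reported here. The members and lists were chosen with earlier results of these data known. Analyses used Python 3 with numpy, scipy, pandas and pysam.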

Additional observations from a re-analysis of the deposited data

Results flagged for a closer look

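At 3 pairs the effect of HNRNPC loss differed, beyond counting error, between cells low in PABPC4 and cells that kept it. The gap between both effects was tested by a Wald z test with Benjamini-Hochberg adjustment over 4692 pairs. Its error holds no spread between libraries. The TSPAN3 pair lay 0.984 ± 0.166 (counting SE) higher in PABPC4-depleted cells (Wald adjusted p 1.4e-05). The ECE1 pair lay −0.711 ± 0.164 and the DPP9 pair −1.36 ± 0.319 from their values in HNRNPC KD (Wald adjusted p 0.0299 for each). With no adjustment, 49 pairs passed p 0.01. The distal end of TSPAN3 and the proximal end of ECE1, the ends that lost share, have an Alu-type motif. Read numbers at such ends are uncertain. The sites of DPP9 could not be placed. The cause was not tested.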

How the results depend on the processing

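The error of the difference mattered most. With the larger of both variances in place of their sum, 239 pairs passed p 0.01 and 97 passed adjusted p 0.05, in place of 89 and 25. With errors from solved reads, on 2731 pairs, the counts were 152 and 60. The former error leaves out the noise of 1 knockdown and can fall below the latter, as for LNPK (0.413 and 0.447). All 89 called pairs remained called in the former, and all 53 that could be tested in the latter. Both errors are smaller than the upper bound by construction, so this was fixed in advance and lends no support. Fewer pairs tested gave fewer calls: 42 and 13 with only the outermost sites of each gene paired, and 33 and 15 for pairs of transcript-named ends. At p 0.001, 41 pairs passed. Without pairs that have an Alu-type end, an alternative chosen after seeing the data, 65 and 14 passed. The share of called genes with the same sign in HNRNPC KD was 83.3% for pairs of transcript-named ends, 80.0% at p 0.001 and 87.5% at adjusted p 0.05; under the other alternatives it lay within the interval of the value reported. The share lower in double KD and the median difference kept their direction under all alternatives run. A limit of 5 on absolute logAPAR removed 1 pair and changed no count. No named gene lost its adjusted call under either other error, which their smaller size largely fixed, and 22 of 46 gained one with the larger variance in place of the sum. Of 102 list counts under alternatives, 45 moved by over 1.5 times, mostly on 1 to 6 genes. At ends with an Alu-type motif the median log2 read ratio was −1.01 with at least 20 reads and −1.29 with at least 100. Position-named sites could not be placed, which limits the motif counts. No paired analysis was possible because the deposited comparisons hold no value per library, and no library could be left out for the same reason.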
